A study of Mus musculus with 6 samples.

Results

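The 9 genes described here are 7 arachidonate lipoxygenases (Alox12b, Aloxe3, Alox12e, Alox8, Alox12, Alox15 and Alox5) and 2 enzymes that build the acylceramides of the skin barrier (Elovl4 and Cers3). They were taken by symbol from a table of RNA-Seq read counts for 26814 genes in mouse top lip, and all 9 were among the 15009 genes kept by a filter on low counts, which asked for 1 CPM (counts scaled to a common library size) or more in 3 or more libraries. Lipoxygenases insert oxygen into polyunsaturated fatty acids. In the epidermis ALOX12B and then ALOXE3 oxidise the linoleate of acylceramides, the very long ceramides that ELOVL4 and CERS3 help to make, and this precedes the attachment of these lipids to the envelope of the cornified cell. Loss of several of these enzymes causes ichthyosis, a scaling of the skin. ALOX5, ALOX15 and ALOX12 are better known from leukocytes, macrophages and platelets, where they start the synthesis of leukotrienes and other signalling lipids.

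The libraries came from 3 Gtf2ird1 knockout mice of the tm1Hrd line (KO1, KO2 and KO3) and 3 wild type mice (WT1, WT2 and WT3), 1 library per mouse. All were adult females of 2 to 6 months on the C57BL/6J background, and the targeted allele is a germline one, not limited to a cell type. The study ascribes the lip overgrowth of this line to homozygous null mice and reports that heterozygous mice do not show it. Gtf2ird1 encodes a transcription factor and lies in the interval deleted in Williams-Beuren syndrome. The comparison asks how the lip transcriptome differs between the genotypes.

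The libraries held between 20164081 and 29491767 counts on genes, so that 3 counts, the most that a count of 0 allows, corresponded to 0.0986 to 0.154 CPM, and RNA integrity numbers were 9 to 9.5. Gtf2ird1 itself was higher in the KO libraries, at 144 to 166 CPM against 70.2 to 78.2 CPM in the WT libraries (log2 fold change 1.11 with a standard error, SE, of 0.13, adjusted p = 0.0018). Reads of a targeted and of an intact allele cannot be told apart in gene counts, and Gtf2ird1 shares exon bases with Gm42882 on the opposite strand. The target thus did not fall in the libraries labelled KO, and its gene counts do not test the label. The study cites earlier work in which GTF2IRD1 bound its own promoter and regulated its own gene. The part of this in the counts was not tested. The study describes overgrown and wrinkled lips in its KO mice, and tail biopsies taken to check the genotypes. KO below means the libraries labelled KO. KO3 stood apart from the other libraries with this label: across the tested genes its log2 CPM correlated at 0.948 to 0.955 with the WT libraries, against 0.907 to 0.933 for KO1 and KO2. Its correlations with KO1 and KO2 were 0.957 and 0.969, above those with the WT libraries and below the 0.984 between KO1 and KO2. Results for the 9 genes that turn on KO3 are therefore given with and without it, and for the pathway lists as counts and for the genes named there. All 8 listed basal keratinocyte markers, among them Krt5 and Krt14, were expressed in each library, and so were all those listed for spinous and granular keratinocytes, hair follicle, sebaceous gland and skeletal muscle.

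Of the 9 genes, 1 was significantly up-regulated in the KO (Cers3), 1 was down-regulated (Alox15) and 7 did not pass an adjusted p of 0.05 in edgeR's quasi-likelihood test. Over all tested genes this test called 6.47%, with 4.38% higher and 2.09% lower in the KO. Unadjusted p-values under 0.05 were found for 5 of the 9 genes and for 29.6% of all tested genes. Counts of marker or pathway genes at an unadjusted p under 0.05 are to be read against this share, and those by other tools against 14.9% of all genes for edgeR's exact test, 14.2% for DESeq2 and 33.0% for the quasi-likelihood test without KO3. The 3 KO values lay above the 3 WT values for Cers3 and below them for Alox12e, Alox12, Alox15 and Elovl4, a total of 5 genes, whereas 31.5% of all tested genes did not overlap between genotypes (13.5% above and 18.1% below). The median log2 fold change of the 9 genes was -0.04, beside -0.02 for all tested genes, with 3 genes above and 6 below 0. As the samples were whole lip, fewer cells of a type and less RNA per cell cannot be told apart in any of these values.

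**Figure D1:**
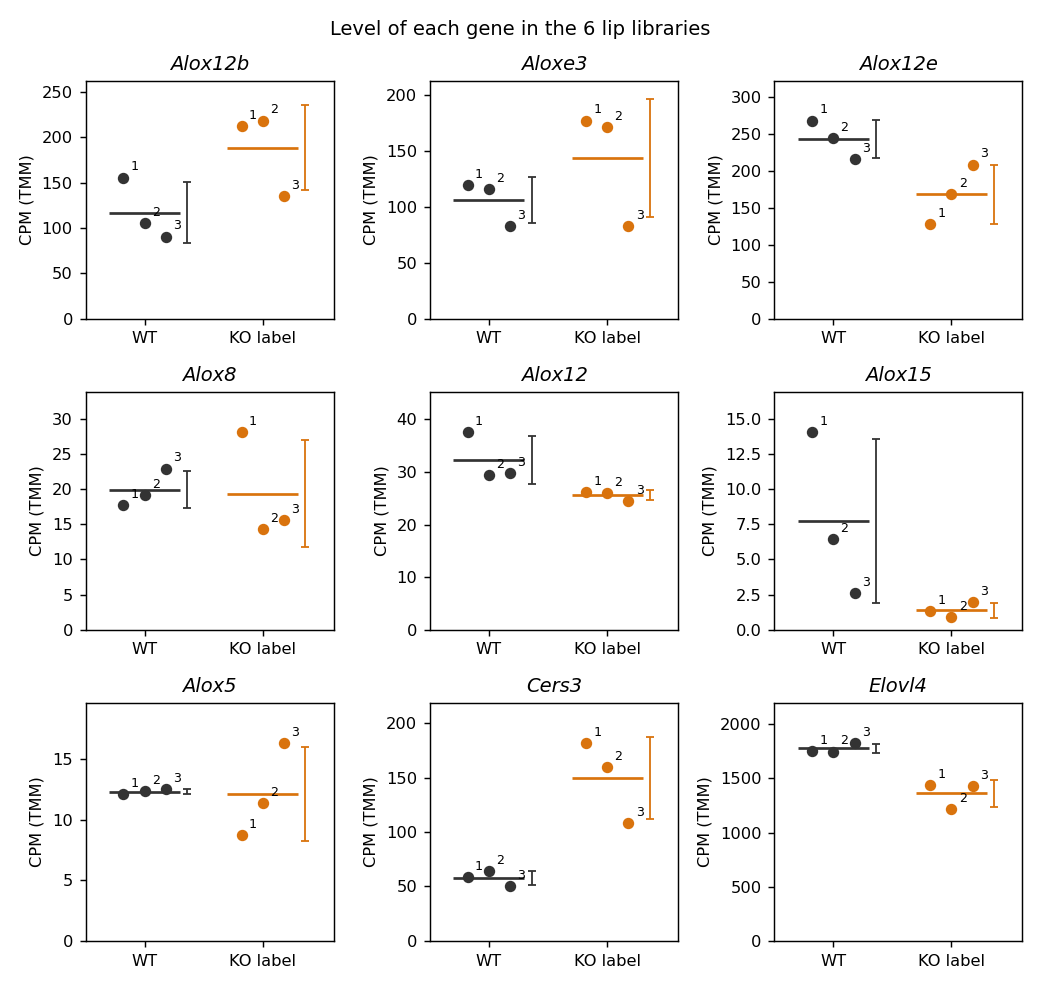
Level of each of the 9 genes in the 6 lip libraries, in CPM scaled by TMM factors, with 1 panel per gene and linear axes that start at 0. Points are libraries (black WT, orange labelled KO, numbered by replicate), horizontal lines are means and the bars beside them are SDs (n = 3). Cers3 is the panel in which every KO point, at 108 to 182 CPM, lies above the WT points, at 50.5 to 63.9 CPM, and in Alox15 the WT points spread from 2.61 to 14.1 CPM.

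The 2 ceramide enzymes differed in direction, and only Cers3 passed the test. Cers3, the ceramide synthase that joins ultra-long fatty acids to the sphingoid base, was expressed at 58.7, 63.9 and 50.5 CPM in WT1, WT2 and WT3 and at 182, 159 and 108 CPM in KO1, KO2 and KO3. Each KO library was above each WT library, and KO3 was the lowest of the KO. This was a log2 fold change of 1.38 (SE 0.21, adjusted p = 0.00745), a 2.59-fold increase that ranked 304 by p among all tested genes. It passed the threshold in each of 8 alternative analyses at that threshold, and also with any 1 of the 6 libraries left out, with log2 fold changes of 1.28 to 1.57 and adjusted p-values of 0.000227 to 0.0484.

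Elovl4, the elongase that produces those ultra-long fatty acids and so acts a step earlier, was expressed at 1756, 1749 and 1828 CPM in the WT and at 1438, 1221 and 1431 CPM in the KO. Here each KO library lay below each WT library, and the WT libraries were close together (coefficient of variation 2.48%). Elovl4's log2 fold change of -0.38 (SE 0.16) did not pass the test (adjusted p = 0.157), nor did it in any alternative or with any library left out, KO3 included (-0.41, adjusted p = 0.125). Among markers of other tissues and cells, 3 lists, beside the platelet list given with Alox12, had a lower summed level in every KO library than in every WT library. The 8 skeletal muscle markers summed to 8870 to 11553 CPM for WT and 3848 to 7490 CPM for KO, the 7 hair follicle markers to 8140 to 10369 and 5488 to 7025 CPM, and the 8 mast cell markers to 206 to 259 and 148 to 194 CPM. The quasi-likelihood test called 2, 0 and 0 of these genes, all lower, while 8, 6 and 4 had an unadjusted p under 0.05. DESeq2 called 5, 1 and 1 of them, and the exact test 6, 1 and 2, again all lower. Without KO3, 7 muscle and 4 hair follicle markers were called lower, and of the mast cell markers 1 was called higher and 5 lower. All log2 fold changes of the muscle and hair follicle markers were negative, whereas 2 of the mast cell markers were positive and 6 negative. The 7 fibroblast markers summed to 6530 to 8463 CPM for WT and to 2835, 3591 and 6790 CPM in KO1, KO2 and KO3, and the 8 sebaceous gland markers to 4488 to 5485 CPM for WT and to 3030, 3675 and 4814 CPM, so that in both KO3 alone reached the WT range. None of the 7 fibroblast markers was called by the quasi-likelihood test, the exact test or DESeq2 (1 had an unadjusted p under 0.05), although all 7 log2 fold changes were negative and 4 were called lower without KO3. Of the sebaceous markers 7 of 8 were negative, with 1 called higher and 1 lower, and 1 higher and 4 lower without KO3. The part of these tissues and cells in the level of Elovl4, or of Alox12e below, was not tested.

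The ratio of Elovl4 to Cers3 within a library, computed from counts per kilobase of exon, does not depend on how libraries are scaled. This ratio was 32.2, 29.4 and 39.0 in the WT libraries and 8.51, 8.24 and 14.3 in the KO libraries. Its log2 value was 1.74 lower in the KO on average (difference -1.74), and the genotypes did not overlap (p = 0.1 in a two-sided exact permutation test, which cannot go lower with 3 libraries per genotype). With each library left out in turn the difference lay between -1.99 and -1.60. Keratinocyte markers stood as follows: the summed level of the 6 spinous markers lay between 17677 and 21807 CPM for WT and between 28754 and 43833 CPM for KO, although none of the 6 passed the quasi-likelihood test singly (3 had an unadjusted p under 0.05, beside 29.6% of all genes, and the exact test and DESeq2 each called 3 higher, beside 14.9% and 14.2%), while the sums of the 8 basal markers overlapped (10886 to 11892 and 10301 to 12161 CPM). The part of cell composition in the ratio was not tested.

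The sequences upstream of these genes are shown because the Elovl4 to Cers3 ratios did not overlap between genotypes (exact permutation test, p = 0.1, not under 0.05). They are also shown because the targeted gene encodes a factor for which GGATTA has been described as the core recognition sequence. RefSeq promoter windows on GRCm38.p6, from 250 bases before to 50 bases after the start, were found for 7 of the 9 genes and not for Aloxe3 or Alox15. They were searched on both strands for GGATTA, for the TATA box TATAAA, for the GC box GGGCGG, for the AP-1 site TGANTCA and for the interferon-stimulated response element. Of the 7 windows only that of Alox5 held a GGATTA, which 7.06% of all 32851 promoter windows hold. GGGCGG was found in all but Cers3 (35.7% of all windows) and the other 3 motifs in none of the 7 (13.6%, 7.81% and 3.44% of all windows, in the order above). The 250 bases before the start of Cers3 (plus strand), Elovl4 (minus strand) and Alox5 (minus strand) follow, 5′ to 3′, with GGATTA and GGGCGG on either strand in capitals.
Cers3, chr7:66743254-66743503: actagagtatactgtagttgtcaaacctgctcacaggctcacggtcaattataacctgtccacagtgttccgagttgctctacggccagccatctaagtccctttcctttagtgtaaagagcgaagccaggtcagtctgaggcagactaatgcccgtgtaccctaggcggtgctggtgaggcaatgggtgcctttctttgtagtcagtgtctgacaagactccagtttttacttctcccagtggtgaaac
Elovl4, chr9:83806306-83806555: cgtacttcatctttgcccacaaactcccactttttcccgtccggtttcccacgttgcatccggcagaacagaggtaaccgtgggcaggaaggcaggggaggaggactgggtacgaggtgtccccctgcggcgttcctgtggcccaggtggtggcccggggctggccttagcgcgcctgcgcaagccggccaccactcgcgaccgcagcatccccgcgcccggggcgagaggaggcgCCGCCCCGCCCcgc
Alox5, chr6:116461179-116461428: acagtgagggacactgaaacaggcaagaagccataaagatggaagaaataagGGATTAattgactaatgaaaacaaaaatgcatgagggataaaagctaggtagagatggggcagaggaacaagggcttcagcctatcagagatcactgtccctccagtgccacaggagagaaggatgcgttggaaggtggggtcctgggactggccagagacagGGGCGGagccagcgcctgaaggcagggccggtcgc
The Elovl4 window was GC-rich, at 71% over its 300 bases, with 2 overlapping GC boxes within 20 bases of the start, whereas that of Cers3 was at 50.7%, close to the median of 52.7% over all windows. These matches describe letters, not binding.

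Alox12b and Aloxe3, the enzymes that act one after the other on the acylceramides, both had higher means in the KO without passing the test. Alox12b was at 156, 105 and 90.6 CPM in the WT and at 213, 219 and 135 CPM in the KO. KO1 and KO2 were above every WT library, and KO3 lay below WT1. A log2 fold change of 0.69 (SE 0.25) resulted, with an adjusted p of 0.121. It passed the test without KO3 (0.89, adjusted p = 0.0125) and in DESeq2's Wald test with all libraries (adjusted p = 0.0492). With any other library left out it did not pass, and the smallest change was 0.53 without WT3 (adjusted p = 0.336).

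Aloxe3 was also highest in KO1 and KO2, with 119, 116 and 82.6 CPM in the WT and 177, 171 and 82.4 CPM in the KO. KO3 was here level with the lowest WT library, WT3. Its log2 fold change of 0.44 (SE 0.29, adjusted p = 0.334) became 0.72 without KO3 (adjusted p = 0.0127). Aloxe3 was called in no other fit that left out 1 library, and its smallest change was 0.29 without WT3 (adjusted p = 0.659). The ratio of Aloxe3 to Alox12b per kilobase was 0.291, 0.417 and 0.346 in the WT and 0.316, 0.297 and 0.232 in the KO, and the genotypes overlapped (log2 difference -0.32, two-sided exact permutation test, p = 0.3). Sums of the 7 markers of the granular and cornified layer, where both enzymes are known to act, were 7760, 5470 and 5289 CPM in the WT and 8898, 9377 and 4903 CPM in the KO, so KO3 was the lowest of the KO libraries there as well. The quasi-likelihood test called 1 of these 7 markers higher and the exact test and DESeq2 each called 3, 3 had an unadjusted p under 0.05, and their part in the levels of Alox12b and Aloxe3 was not tested.

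Alox12e, the mouse epidermal-type 12-lipoxygenase, went the other way. It was expressed at 268, 244 and 216 CPM in the WT and at 128, 168 and 208 CPM in the KO, and each KO library lay below each WT library, KO3 by the smallest margin, in the direction of the muscle, hair follicle and mast cell sums given above. Alox12e had a log2 fold change of -0.53 (SE 0.19, adjusted p = 0.119), and without KO3 one of -0.70 with an adjusted p of 0.0131. No other fit that left out 1 library called Alox12e, and its smallest change was -0.30 without KO1 (adjusted p = 0.374). The ratio of Alox12e to Alox12b per kilobase was 1.48, 1.99 and 2.05 in the WT and 0.518, 0.662 and 1.33 in the KO. Alox12e was thus above Alox12b per kilobase in every WT library and in KO3, and below it in KO1 and KO2. The log2 ratio differed by -1.24, without overlap (p = 0.1, again the lowest value of the two-sided exact permutation test), and by -1.64 to -0.96 with each library left out.

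Alox8, which encodes the 8-lipoxygenase that is inducible in mouse skin, was at 17.7, 19.1 and 22.9 CPM in the WT and at 28.1, 14.3 and 15.6 CPM in the KO. KO1 was the highest and KO2 the lowest of the 6 libraries, so the KO values enclosed those of the WT. With a log2 fold change of -0.04 (SE 0.27, adjusted p = 0.928) Alox8 did not pass, and its sign depended on which library was left out.

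**Figure D2:**
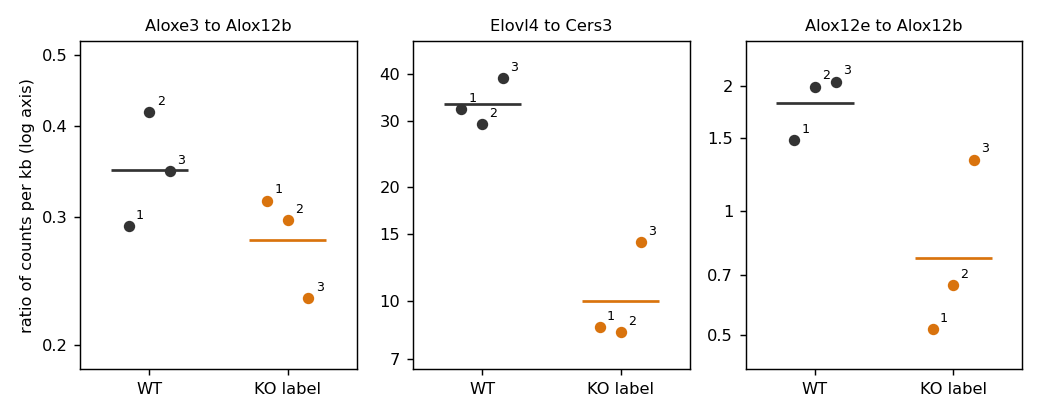
Ratios of counts per kilobase of exon between 3 pairs of genes in each library, on log axes. Points are libraries numbered by replicate (black WT, orange labelled KO) and horizontal lines are geometric means (n = 3). The Elovl4 to Cers3 and Alox12e to Alox12b ratios do not overlap between genotypes, with KO3 nearest to the WT in both, whereas the Aloxe3 to Alox12b ratios overlap.

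Of Alox15, Alox12 and Alox5, only Alox15 passed the test. This 12/15-lipoxygenase, known in the mouse from resident macrophages and eosinophils, had 14.1, 6.46 and 2.61 CPM in the WT (388, 152 and 58 counts) and 1.33, 0.888 and 1.97 CPM in the KO (26, 27 and 43 counts). The KO libraries were below all WT libraries, yet WT3 was nearer to KO3 than to WT1. The decrease was 5.62-fold, or -2.49 on the log2 scale (SE 0.60, adjusted p = 0.0484). Between WT mice the coefficient of variation was 75.7%, and 0.540% of tested genes varied as much. The call was held in 5 of 8 alternatives and lost with DESeq2's size factors, when each library had to hold 10 counts or more and with a block for replicate number (adjusted p between 5.28e-05 and 0.0697 over the 8). With 1 library left out it was kept without WT3 or KO3 and lost without WT1 (-1.72, adjusted p = 0.154), WT2 (-2.55, 0.0896), KO1 (-2.41, 0.153) or KO2 (-2.17, 0.215).

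Markers of the cells that Alox15 is known from were summed beside it. The 8 macrophage markers gave 302 to 345 CPM for WT and 217 to 335 CPM for KO, and none was called by the quasi-likelihood test (2 had an unadjusted p under 0.05, beside 29.6% of all genes), the exact test or DESeq2. Without KO3, 4 of the 8 were called lower, beside 33.0% of all genes called in either direction. Of the 8 eosinophil markers only Ear1 passed the filter, and it was higher in the KO (0.181, 0.255 and 0.180 CPM against 5.37, 3.16 and 1.55 CPM). Siglec5, under the filter, lay lower in each KO library (0.205, 0.0986 and 0.320 CPM) than in each WT library (0.726, 0.723 and 0.405 CPM), while the defining granule genes Epx, Prg2, Prg3 and Ear6 had at most 3 counts in any library. The 8 eosinophil markers together summed to 0.989 to 1.79 CPM for WT and 2.38 to 6.04 CPM for KO, a rise that was Ear1 alone: the other 7 summed to 1.49, 1.53 and 0.810 CPM in the WT and to 0.665, 0.592 and 0.823 CPM in the KO, with a lower mean in the KO and overlap. The part of either cell type in the level of Alox15 was not tested.

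Alox12, the platelet-type 12-lipoxygenase, was at 37.6, 29.4 and 29.8 CPM in the WT and at 26.2, 26.0 and 24.5 CPM in the KO. The KO libraries lay close together (coefficient of variation 3.75%) and below each WT library. Alox12 did not pass the test (log2 fold change -0.34, SE 0.15, adjusted p = 0.172). The 8 platelet markers had a summed level of 40.1 to 49.0 CPM for WT and 27.6 to 35.8 CPM for KO. This separation rested on Pf4 (23.8, 16.7 and 24.3 CPM in the WT and 8.85, 9.14 and 17.6 CPM in the KO), since the other 7 summed to 25.2, 23.3 and 24.6 CPM and to 24.3, 18.5 and 18.2 CPM, with overlap. Of the 8 markers 4 passed the filter, and none was called by the quasi-likelihood test or DESeq2, whereas 1 had an unadjusted p under 0.05 (29.6% of all genes) and 1 was called lower by the exact test (14.9% of all genes). Gp6 and Treml1 of that list had at most 3 counts in any library, and the part of platelets in the level of Alox12 was not tested.

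Alox5, the enzyme that begins leukotriene synthesis, had 12.1, 12.3 and 12.5 CPM in the WT and 8.70, 11.4 and 16.3 CPM in the KO. The WT libraries were nearly equal, and the KO values fell on both sides of them, lowest in KO1 and highest in KO3. Alox5 did not pass the test (log2 fold change -0.02, SE 0.23, adjusted p = 0.959). Alox5ap, the protein that presents arachidonate to ALOX5, had its highest level in KO3 as well (13.9 to 15.6 CPM for WT and 10.4 to 19.4 CPM for KO, log2 fold change -0.11, adjusted p = 0.801). For neutrophils, which use ALOX5, 2 of the 8 listed markers passed the filter. Neither was called by the quasi-likelihood test, the exact test or DESeq2. Of the 2, 1 had an unadjusted p under 0.05 (29.6% of all genes) and 1 was called higher without KO3 (33.0% of all genes in either direction). The 6 analysed markers summed to 4.46 to 6.64 CPM for WT and 6.54 to 8.80 CPM for KO. Ngp and Ltf of these had at most 3 counts in any library, and Ly6g and Elane were not analysed here.

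**Figure D3:**
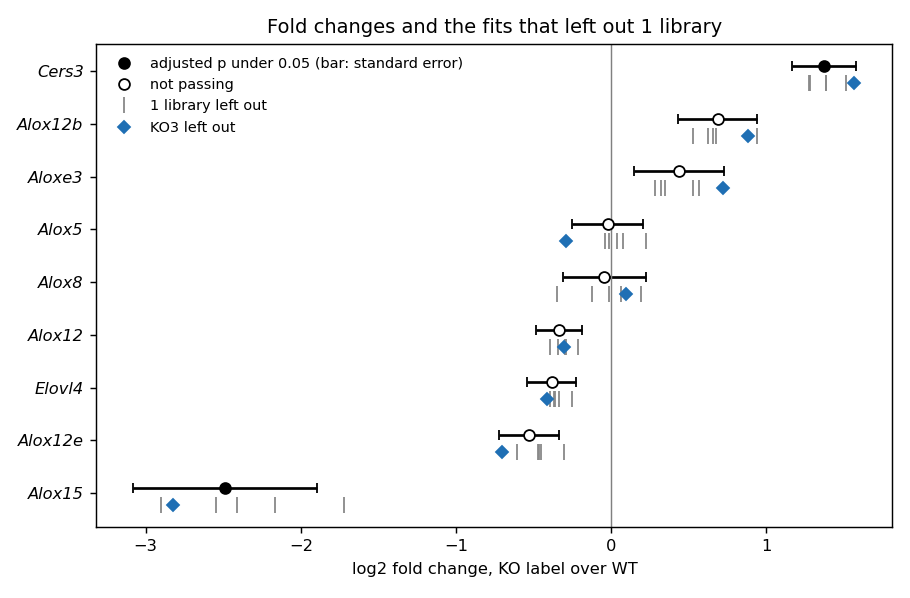
Log2 fold change of each gene, KO label over WT, from edgeR's quasi-likelihood fit. Circles are the fits with all 6 libraries (filled where the adjusted p is under 0.05, bars are standard errors), grey ticks the fits that left out 1 library and blue diamonds the fit without KO3. Cers3 keeps a log2 fold change of 1.28 or more in every fit, and without KO3 the values for Alox12b, Aloxe3 and Alox12e move away from 0.

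Leaving out KO3 changed the calls more than any other library. Without it 3 of the 9 genes were called higher (Cers3, Alox12b and Aloxe3) and 2 lower (Alox12e and Alox15), while 33.0% of all tested genes were called in that fit. With all libraries, edgeR's exact test called Cers3 and Alox15 again, beside 14.9% of all genes. DESeq2's Wald test called Cers3, Alox12b and Alox15, beside 14.2% of all genes to which it gave an adjusted p.

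Per kilobase of exon the levels of the 9 genes covered a wide range. In the WT, Elovl4 led with 587 ± 14.6 CPM per kilobase (SD, n = 3), followed by Alox12e with 85.8 ± 9.15 and Alox12b with 48.2 ± 14.0, and these did not overlap with their neighbours. Cers3 with 17.7 ± 2.08 and Aloxe3 with 16.5 ± 3.15 overlapped with each other. Alox12 followed with 7.90 ± 1.13 and Alox8 with 5.59 ± 0.750, and Alox15 with 3.14 ± 2.38 overlapped with both Alox8 and the last, Alox5, with 3.00 ± 0.0465.

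The order in the KO differed at several places. Alox12b moved to second place with 77.6 ± 19.2 CPM per kilobase, ahead of Alox12e with 59.5 ± 14.2 and Cers3 with 46.0 ± 11.7. However, the ranges of Alox12b and Alox12e overlapped, as did those of Alox12e and Cers3. Those of Alox12b (55.5 to 89.9) and Cers3 (33.1 to 55.8) overlapped narrowly. Elovl4 remained first with 451 ± 40.9. Aloxe3 had 22.4 ± 8.26, and Alox12 with 6.26 ± 0.235 overlapped with Alox8 with 5.44 ± 2.15. Alox15 was last with 0.568 ± 0.221, below Alox5 with 2.95 ± 0.942 and without overlap.

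**Figure D4:**
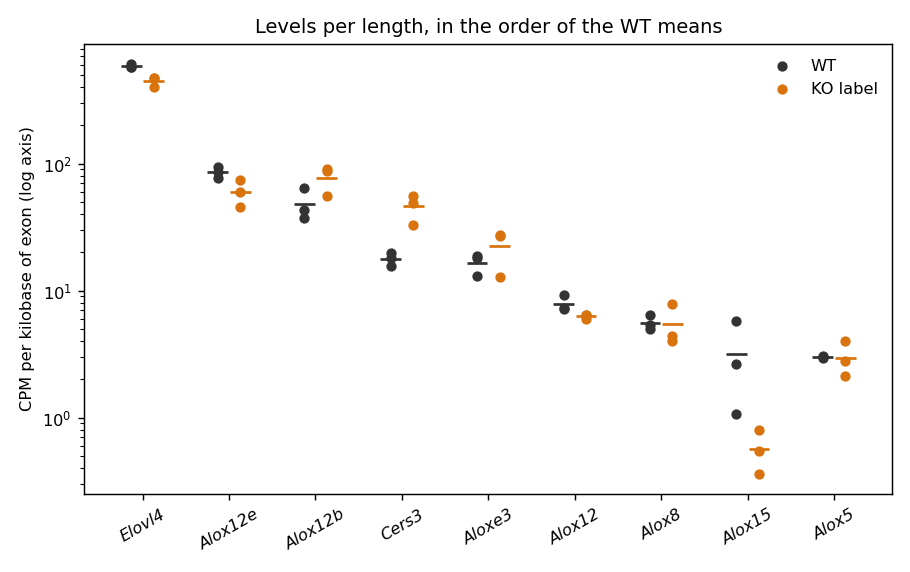
Level of each gene in CPM per kilobase of exon, on a log axis, with genes in the order of their WT means. Points are libraries (black WT, orange labelled KO) and short lines are means (n = 3). Elovl4 is the highest gene in both genotypes, and Alox15 moves from beside Alox5 in the WT to below it in the KO.

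The 6 lipoxygenase genes on chromosome 11 lie in a pair of clusters on GRCm38. Aloxe3 (69125896 to 69149115, plus strand), Alox12b (69156989 to 69169792, plus strand) and Alox8 (69183932 to 69197843, minus strand) lie within 71948 bases. Alox12 (70241457 to 70255353), Alox12e (70315610 to 70322628) and Alox15 (70344152 to 70352031), all on the minus strand, lie within 110575 bases, and 1043613 bases separate the clusters. In the first cluster the log2 fold changes were 0.44, 0.69 and -0.04, and in the second -0.34, -0.53 and -2.49, and the 3 genes of the second cluster were each lower in all KO libraries, as were 18.1% of all tested genes, while those of the first overlapped between genotypes. This is a description, since only Alox15 passed the test and the difference between the clusters was not tested. Alox5 is on chromosome 6 (116410077 to 116461178, minus strand), Cers3 on chromosome 7 (66743504 to 66823691, plus strand) and Elovl4 on chromosome 9 (83778692 to 83806277, minus strand). None of the 9 genes overlaps another annotated gene. The similar lipoxygenase sequences could be told apart: of all stretches of 50 bases in their transcripts, the share found in transcripts of other genes was 1.68% for Alox8, 0.383% for Aloxe3, 0.248% for Alox12 and 0 for the other 6 genes.

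Across the 6 libraries, which differ in genotype and share their scaling, the log2 CPM of Alox12b and Aloxe3 had a Pearson correlation of 0.84 and that of Alox12b and Cers3 one of 0.86. Cers3 ran opposite to Elovl4 (-0.91) and to Alox12e (-0.88), and Alox12 ran with Alox15 (0.87). These values describe 6 points in 2 genotypes. The 2 tested genes most like each of the 9 by this measure were Gm26797 and Mst1r for Cers3, Nudt6 and Cldn23 for Elovl4, Smpd3 and Tfcp2l1 for Alox12b, B630005N14Rik and Eps8l1 for Aloxe3, and Abl1 and Fbxo40 for Alox12e. They were Gm26890 and Gpr22 for Alox8, Ndufs4 and Ube2b for Alox12, Apol6 and Tmem38b for Alox15, and Itgb7 and Ap2b1 for Alox5. All of these correlations were 0.982 or higher.

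The neighbouring pathways were read from lists of 54 genes, of which 51 were tested. In the KO 6 of them were up-regulated and 1 was down-regulated, beside 4.38% and 2.09% of all tested genes, and their median log2 fold change was 0.13. Without KO3, 21 were called higher and 10 lower, beside 33.0% of all genes called in either direction in that fit.

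Among 8 genes listed for omega-hydroxylated fatty acids and their use in acylceramides, only Abhd5 passed the test. Its product is the partner of the acylceramide-forming enzyme PNPLA1. Abhd5 had 84.4, 87.8 and 84.0 CPM in the WT and 164, 152 and 132 CPM in the KO (log2 fold change 0.81, SE 0.13, adjusted p = 0.0110), but it shares exon bases with A730085K08Rik on the opposite strand, and the call was kept in 3 of 6 fits that left out 1 library (highest adjusted p 0.0685). Per kilobase of exon the most highly expressed of the others were Slc27a4, a fatty acid transporter (-0.49, adjusted p = 0.199, and without KO3 -0.69, adjusted p = 0.0360), and Elovl1, the elongase for shorter very long chains (-0.15, adjusted p = 0.557). Pnpla1 itself was at 75.4, 59.9 and 60.6 CPM in the WT and at 109, 104 and 78.7 CPM in the KO (0.58, adjusted p = 0.0787). In this list 2 genes had an unadjusted p under 0.05, the exact test and DESeq2 each called 2 higher, and the fit without KO3 called 3 higher and 1 lower.

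Of 14 genes for the ceramide backbone 13 were tested, and Degs1, the dihydroceramide desaturase, was the only one to pass, with 146 to 159 CPM for WT and 211 to 268 CPM for KO (0.63, SE 0.14, adjusted p = 0.0367). Of the fits that left out 1 library it was called only in that without KO3 (highest adjusted p 0.156). Fa2h, the fatty acid 2-hydroxylase, had a log2 fold change of -0.84 (adjusted p = 0.115) and Sptssa, a subunit of serine palmitoyltransferase, one of -0.47 (adjusted p = 0.0700). Both passed without KO3 (-1.17, adjusted p = 0.00830, and -0.51, adjusted p = 0.0254), and with all libraries the exact test called Fa2h (adjusted p = 0.0316) and DESeq2 called Sptssa (adjusted p = 0.0389). In this list 8 of 13 genes had an unadjusted p under 0.05, the exact test called 1 higher and 1 lower, DESeq2 3 and 1, and the fit without KO3 4 and 4. The median of this list was -0.39, with 4 genes above and 9 below 0. Of the other ceramide synthases listed, Cers1 was not tested and Cers2 (-0.43, adjusted p = 0.0941), Cers4 (-0.49, 0.102), Cers5 (-0.39, 0.195) and Cers6 (0.62, 0.0900) were not called by the quasi-likelihood test or the exact test. DESeq2 called Cers6 higher (adjusted p = 0.0250), and without KO3 Cers6 was called higher and Cers2 and Cers4 lower.

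The largest change in these lists was that of Abca12, the transporter that loads glucosylceramides into lamellar granules. Its levels were 105, 125 and 175 CPM in the WT and 677, 466 and 262 CPM in the KO, with each KO library above each WT library. On the log2 scale the increase was 1.79 (SE 0.34, adjusted p = 0.0231). With 1 library left out the call was kept without KO1 or KO3 and lost in the other 4 fits (highest adjusted p 0.113). In the same list of 9 genes for glucosylation, transport and processing, the sphingomyelin synthase Sgms1 rose (63.7 to 79.2 CPM for WT, 127 to 142 CPM for KO, 0.97, adjusted p = 0.00542, with a few exon bases shared with 2700046G09Rik on the opposite strand) and the acid sphingomyelinase Smpd1 fell (123 to 168 and 86.4 to 103 CPM, -0.67, adjusted p = 0.0469). The saposin precursor Psap (-0.45, adjusted p = 0.216) and the ceramidase Acer1 (0.13, adjusted p = 0.542) did not pass, though Psap did without KO3 (-0.69, adjusted p = 0.0226). Sgms1 was called with any 1 library left out, and Smpd1 only without WT2 or KO3 (highest adjusted p 0.240). In this list 5 genes had an unadjusted p under 0.05, and the exact test called 2 higher and 1 lower, DESeq2 3 and 2, and the fit without KO3 4 and 3.

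None of the 6 genes listed for steps after the epidermal lipoxygenases passed, although 5 of the 6 had positive log2 fold changes. Not all of the 6, among them Nipal4 and Hpgd, have a settled place in these steps. Of the 6, 3 had an unadjusted p under 0.05 (29.6% of all genes), the exact test and DESeq2 each called 2 higher, and 5 were called higher without KO3 (33.0% of all genes in either direction). Sdr9c7, the dehydrogenase that oxidises the products of ALOXE3, had 70.8, 71.0 and 55.2 CPM in the WT and 205, 153 and 85.0 CPM in the KO (1.17, adjusted p = 0.0552), and the transglutaminase Tgm1 had a log2 fold change of 0.44 (adjusted p = 0.221). Without KO3 both passed, at 1.45 (adjusted p = 0.000810) and 0.63 (adjusted p = 0.0264), and with all libraries Sdr9c7 passed the exact test (adjusted p = 0.00109) and DESeq2 (adjusted p = 0.000977). Of 8 leukotriene genes 6 were tested and none was called, with 1 at an unadjusted p under 0.05 (29.6% of all genes) and 1 called higher by the exact test, by DESeq2 (14.9% and 14.2%) and without KO3. The leukotriene B4 receptor Ltb4r1 had a log2 fold change of 0.10 (adjusted p = 0.753). Ltc4s and Cysltr2 were not tested.

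In the cyclooxygenase arm, the other fate of arachidonate, 2 of 9 genes rose. Ptges, the inducible prostaglandin E synthase, had 22.8 to 25.5 CPM for WT and 33.5 to 46.4 CPM for KO (0.68, adjusted p = 0.0440). Hpgds, the haematopoietic prostaglandin D synthase, had 3.70 to 4.81 and 6.08 to 11.3 CPM (1.17, adjusted p = 0.0414). It overlaps Gm17147 on the opposite strand, though not in exons. The cyclooxygenase Ptgs1 had a log2 fold change of 0.61 (adjusted p = 0.0527, and without KO3 0.55, adjusted p = 0.0240), passed the exact test (adjusted p = 0.0254) and DESeq2 (adjusted p = 0.00461), and Ptges3, a cytosolic prostaglandin E synthase, had a log2 fold change of 0.25 (adjusted p = 0.189). Ptgis, the prostacyclin synthase, lay lower in each KO library, at 6.71, 8.59 and 8.64 CPM in the WT and 4.20, 2.96 and 5.26 CPM in the KO (-0.95, adjusted p = 0.0601). In this list 4 genes had an unadjusted p under 0.05, the exact test and DESeq2 each called 3 higher and 1 lower, and the fit without KO3 called 4 higher and 2 lower. Ptges and Hpgds were called with 1 library left out only where that was KO3 (highest adjusted p 0.176 and 0.168).

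**Figure D5:**
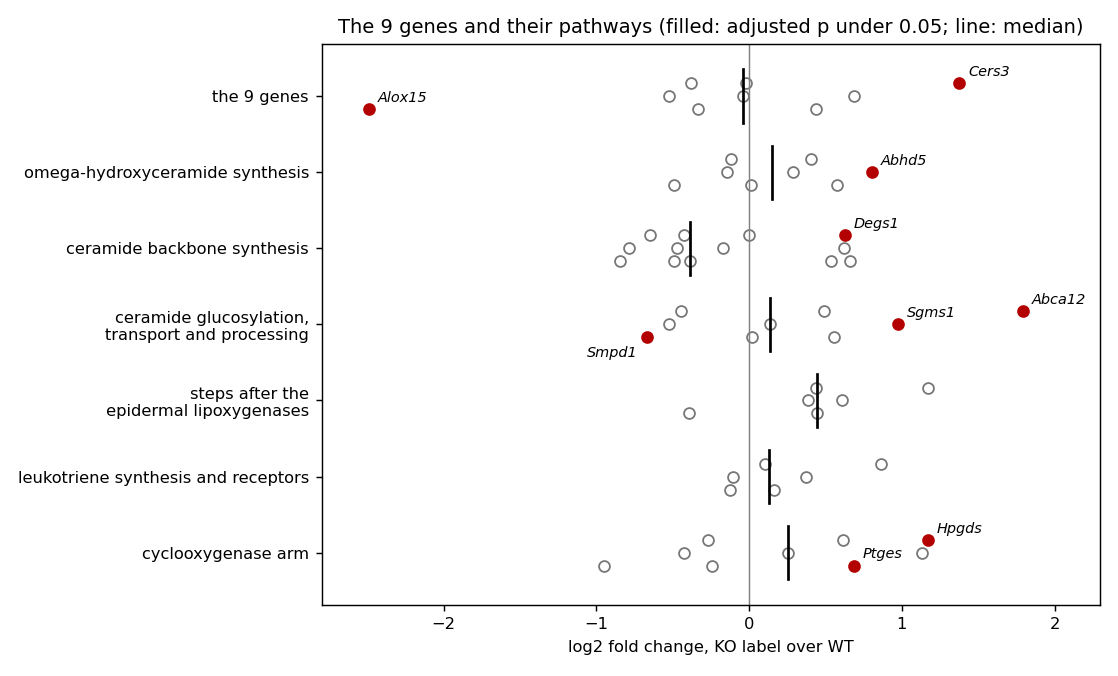
Log2 fold changes, KO label over WT, of the 9 genes and of the tested genes of 6 pathway lists. Each point is a gene, offset vertically for legibility, filled red where the adjusted p is under 0.05, and short vertical lines are medians. Cers3 and Abca12 are the points farthest to the right among the filled genes, and Alox15 is the one farthest to the left.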

How the data were processed

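Paired-end reads were aligned by the authors to GRCm38 with TopHat2 (2.0.8) and Bowtie2 (2.1.0), versions from the submitters' processing notes. The deposited values are unnormalized whole-number counts of uniquely mapped reads per gene symbol, from HTSeq-count. Whether strand was used in counting is not given in the sources used here. Among the other pathway and marker genes named, Pnpla1, Acer1, Alox5ap, Tgm1, Ptgis, Ptgs1 and Cers4 also share exon bases with an opposite-strand gene. So do Elovl1, Cers1, Cers2, Ltc4s and Krt5.

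Genes reaching 1 CPM in 3 or more libraries were compared with edgeR 4.0.16 in R 4.3.3 (TMM factors, glmQLFit with legacy=FALSE, glmQLFTest, genotype only), with Benjamini-Hochberg adjustment over the 15009 tested genes and a threshold of 0.05. Standard errors are those of the fit. Ratios between genes were compared by exact permutation. Alternatives were edgeR's exact test (the test of the study), DESeq2 1.42.0, the older quasi-likelihood fit, DESeq2's size factors, library size alone, no filter, at least 10 counts in every library, an adjusted p under 0.1, a replicate block and each library left out. Leaving out libraries from the ratios and genes from the marker sums was added after seeing the data. The procedure was tested on simulated data with 200 changed genes. Positions and exon lengths are those of GENCODE M21, and promoters are from RefSeq.

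The 9 genes, the pathway and marker lists and the comparisons were chosen with earlier results of these data known. The genes named are the 9, Gtf2ird1, from each pathway list those that passed (up to 5) and the 2 most highly expressed per kilobase of exon that did not, and for each of the 9 the 2 genes most like it. Ear1, Siglec5, Pf4, Gp1bb, Ptgis, Pnpla1, the remaining ceramide synthases and the markers at 3 counts or fewer were named after their values were seen. Figures were drawn with matplotlib (3.10.9) in Python. P-values measure the spread between 3 mice per genotype, and limits from counts cover counting error only.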

Additional observations from a re-analysis of the deposited data

How the results depend on the processing

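Cers3 stayed up-regulated in every alternative and with every library left out, and the other directions of the 9 genes held except for Alox5 and Alox8, whose changes were near 0. Alox5 had a log2 fold change of 0.026 with DESeq2, 0.0067 with DESeq2's size factors and 0.038 with no filter. With each library left out it ranged from -0.29 to 0.23 for Alox5, from -0.35 to 0.19 for Alox8 and from -0.45 to 0.11 for Alox5ap. With each library left out, 1 to 3 of the 9 genes were higher and 0 to 2 lower, 1 to 21 pathway genes higher and 0 to 10 lower, and 208 to 2496 of all genes higher and 18 to 2395 lower, with the highest counts without KO replicate 3. DESeq2 called 2 of the 9 genes higher, and with DESeq2's size factors, at least 10 counts in every library or the replicate block 0 were lower. Pathway genes called were 11 higher and 3 lower with the exact test, 14 and 4 with DESeq2, 13 and 5 at an adjusted p under 0.1, and 0 lower with DESeq2's size factors, no filter or at least 10 counts. All genes called were 1165 higher and 1073 lower with the exact test, 1511 and 898 with DESeq2, 1248 and 1281 at an adjusted p under 0.1, and 207, 204 and 204 lower with size factors, no filter and at least 10 counts. Deviations from the genotype mean correlated at -0.19, 0.29 and 0.31 between same-numbered libraries and at -0.50 to 0.41 between differently numbered ones. With 3 libraries per genotype these values cannot decide whether replicate numbers pair the mice. The replicate block gave 580 genes higher and 217 lower, with 4 pathway genes higher and 1 lower. Under the block Abca12 (adjusted p 0.0581), Degs1 (0.0515), Ptges (0.0669) and Hpgds (0.0688) were not called and Sdr9c7 was (0.0336). DESeq2's size factors raised the share of higher calls from 67.7% to 76.2%, and the median log2 fold change of all genes stayed between -0.03 and 0.00. The cause of these shifts was not tested. Alox15 rests on 26 to 388 counts per library.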
